A study of Mus musculus with 9 samples.

Results

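The genes described here are 41 genes of DNA replication and S phase, chosen by symbol from a table of 33924 genes measured by RNA sequencing in mouse thyroid tissue. All 41 were in the table, and all 41 passed the filter on low counts with 17079 genes in all. The series holds 9 libraries in 3 groups of 3: thyroids labelled Smarcb1 KO, thyroids labelled Arid2 KO and Wildtype thyroids. Smarcb1 is a core subunit of the SWI/SNF chromatin remodelling complexes, and Arid2 is a subunit of the form called PBAF. The labels give a genotype and a tissue for each library. A Cre driver, a promoter, an age, a sex and a batch are not given in the sources used here. The deposited counts of all 9 libraries are named NonBraf, and no allele or agent shared by all 3 groups is stated. Each library has its own tag in its title, and the labels do not say whether these tags stand for separate animals. The p-values thus speak for the spread among libraries alone, and how much of that spread is technical cannot be told.

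As background, replication begins when the origin recognition complex, Cdc6 and Cdt1 load the ring of Mcm2 to Mcm7 onto origins in G1. In S phase Cdc45, the GINS complex and Mcm10 turn that ring into an active helicase, and the polymerases copy both strands with the Pcna clamp and its loader. Cyclin E and transcription factors of the E2F family drive entry into S phase, and many replication genes are themselves E2F targets. Adult thyroid follicular cells divide rarely. In bulk tissue, fewer cells of a type and less RNA per cell cannot be told apart.

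Total counts were 38644867 to 41362640 in the Smarcb1-labelled libraries, 61179297 to 89553766 in the Arid2-labelled libraries and 33666251 to 34045321 in wild type, so the Arid2-labelled libraries were the deepest. Levels are given as CPM, counts scaled to a common library size by TMM. Smarcb1 itself stood at 47.5, 53.7 and 59.4 CPM in Smarcb1-labelled thyroids, against 65.9, 71.7 and 69.3 CPM in wild type (log2 fold change -0.36, SE 0.11, adjusted p = 0.0651, edgeR). Arid2 stood at 94.6, 77.7 and 59.9 CPM in Arid2-labelled thyroids, against 68.9, 75.0 and 67.8 CPM in wild type (log2 fold change 0.13, adjusted p = 0.745). Neither target passed the test, and which exons were deleted is not stated, so the groups are called Smarcb1-labelled and Arid2-labelled. The 8 follicular cell genes checked, among them Tg, had counts in all 9 libraries. Rag1, which marks developing lymphocytes of the thymus, reached 52.6 CPM in Smarcb1-labelled replicate 2 and 502 CPM in Arid2-labelled replicate 1. No other library exceeded 0.145 CPM. Thymocytes divide rapidly, so results that rest on these thymocyte-marked libraries are given with and without them.

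In Arid2-labelled thyroids the 41 genes leaned upward together, and no single gene passed the test. Of the 41, 39 had a positive fold change against wild type, with a median log2 fold change of 0.50; over all tested genes 52.5% were positive and the median was 0.017. By edgeR's quasi-likelihood test 0 members were called higher and 0 lower at an adjusted p under 0.05, where 0.234% of all tested genes were called higher. At an unadjusted p under 0.05, 17 members were higher, against 7.86% of all tested genes, and 0 were lower. DESeq2 called 5 members higher, Ccne1, Mcm5, Pole, Rrm2 and Uhrf1, against 2.41% of all tested genes. In 19 members every Arid2-labelled library stood above every wild-type library, against 12.9% of all tested genes, and in 0 members the order was the opposite.

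Arid2-labelled replicate 1 was the highest of all 9 libraries for 29 of the 41 members, and it is the library with Rag1 at 502 CPM. The summed level of the 41 genes was 873, 649 and 676 CPM in Arid2-labelled replicates 1, 2 and 3, against 500, 545 and 590 CPM in wild type, so all 3 Arid2-labelled libraries stood above all 3 wild-type ones. The summed level of 14 thymocyte genes was 1915, 15.4 and 17.2 CPM in the same Arid2-labelled libraries, against 23.6, 25.7 and 18.9 CPM in wild type. Arid2-labelled replicates 2 and 3 stood below all wild-type libraries in this sum. For Rag1 alone the order was the opposite, with 0.016 and 0.145 CPM in these replicates against 0 CPM in every wild-type library. The median member stood 0.65, 0.20 and 0.28 above the wild-type mean on the log2 scale in Arid2-labelled replicates 1, 2 and 3. In the same libraries 37, 23 and 28 members stood above all 3 wild-type libraries. The part of thymocytes in these levels was not tested beyond leaving out the marked libraries.

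Without the thymocyte-marked libraries the median of the 41 genes was 0.27 against wild type, with 34 positive, where 45.6% of all tested genes were positive at a median of -0.033. At an unadjusted p under 0.05, 9 members were then higher, against 5.60% of all tested genes, and 0 were called by edgeR, against 0.157%. All Arid2-labelled libraries left stood above all wild-type ones for 20 members, against 17.2% of all tested genes. Other marker sums also separated these groups. The 5 endothelial genes summed to 523 to 616 CPM in Arid2-labelled thyroids, above the 298 to 411 CPM in wild type. The 4 fibroblast genes summed to 642 to 725 CPM in Arid2-labelled thyroids, below the 986 to 1093 CPM in wild type, and the 5 B cell genes to 6.43 to 9.77 CPM, below the 11.7 to 12.8 CPM in wild type. The part of these cell types in the results was not tested.

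In Smarcb1-labelled thyroids the 41 genes did not lean one way, and 2 members passed the test in opposite directions. Mcm6, a helicase subunit, fell, and Pola1, the catalytic subunit of the primase-bound polymerase, rose. The median log2 fold change against wild type was 0.051, against 0.052 over all tested genes, and 26 members were positive. The 1 call higher compares with 2.15% of all tested genes and the 1 call lower with 5.74%. DESeq2 called 2 members higher, Pola1 and Rfc1, against 5.91% of all tested genes, and 3 lower, Mcm6, Gins2 and Pold1, against 10.4%. Every Smarcb1-labelled library stood above every wild-type library for 8 members, against 17.1% of all tested genes, and below for 3, against 16.7%. These shares lie near or under the background.

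Without the thymocyte-marked libraries the median in Smarcb1-labelled thyroids was -0.089. Mcm6, Cdt1 and Pold1 were then called lower, against 9.09% of all tested genes, and Pola1 was called higher, against 3.51%. Smarcb1-labelled replicate 2, the library left out, had 355 CPM over the 14 thymocyte genes, against 21.2 and 14.5 CPM in replicates 1 and 3. The parathyroid genes Pth, Gcm2 and Casr summed to 6092 to 16992 CPM in Smarcb1-labelled thyroids, against 8.16 to 4320 CPM in wild type. The 5 erythroid genes summed to 94.5 to 185 CPM in Smarcb1-labelled thyroids, against 289 to 1395 CPM in wild type. The part of either tissue in these results was not tested.

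Set directly against Arid2-labelled thyroids, Smarcb1-labelled thyroids were lower in 35 of the 41 genes, with a median of -0.51 where all tested genes had a median of 0.003. Called lower were 9 members, Mcm2, Mcm5, Mcm6, Cdt1, Gins2, Pola2, Pold1, Tk1 and E2f1, against 9.32% of all tested genes. Called higher were 0 members by edgeR, against 6.95% of all tested genes, and 0 by DESeq2, against 12.1%. At an unadjusted p under 0.05, 1 member, Gins3, was higher, against 17.7% of all tested genes, and 17 were lower, against 18.1%. DESeq2 called 14 lower, against 13.5% of all tested genes. All Smarcb1-labelled libraries stood below all Arid2-labelled ones for 16 members, against 20.5% of all tested genes. The median was -0.19 without Arid2-labelled replicate 1, and -0.39 without both thymocyte-marked libraries. Without both, 8 members were called lower, against 11.6% of all tested genes, and 1 higher, against 10.2%. Uhrf1 joined the lower calls, E2f1 and Tk1 left them, and Pola1 was the higher one. Some marker sums also separated these groups. Parathyroid genes summed to 6092 to 16992 CPM in Smarcb1-labelled thyroids, against 10.6 to 1581 CPM in Arid2-labelled thyroids. In the same order, erythroid genes summed to 94.5 to 185 CPM against 251 to 652 CPM. Fibroblast genes summed to 760 to 1222 CPM against 642 to 725 CPM. The endothelial and B cell sums overlapped. The part of these cell types was not tested.

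Calls in this comparison varied in how far they depended on single libraries. Mcm6 and Pold1 were called in 9 of 9 fits that left out 1 library, Gins2 in 6, Pola2 in 3, Mcm2 in 2, Cdt1, E2f1 and Mcm5 in 1 each and Tk1 in 0. The number of members called lower was 3, 11 and 2 without Smarcb1-labelled replicate 1, 2 or 3. It was 3, 2 and 2 without Arid2-labelled replicate 1, 2 or 3, and 3, 5 and 4 without wild-type replicate 1, 2 or 3, which enter through the shared estimate of spread. The number of all genes called moved as well, with 1069, 4411 and 956 genes in the fits without Smarcb1-labelled replicate 1, 2 or 3 and 1761, 800 and 395 genes in those without Arid2-labelled replicate 1, 2 or 3. It was 1677, 2042 and 2145 genes without wild-type replicate 1, 2 or 3, against 2779 with all libraries. This comparison and the 2 against wild type share libraries, so their values are given side by side and not as independent results.

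**Figure D1:**
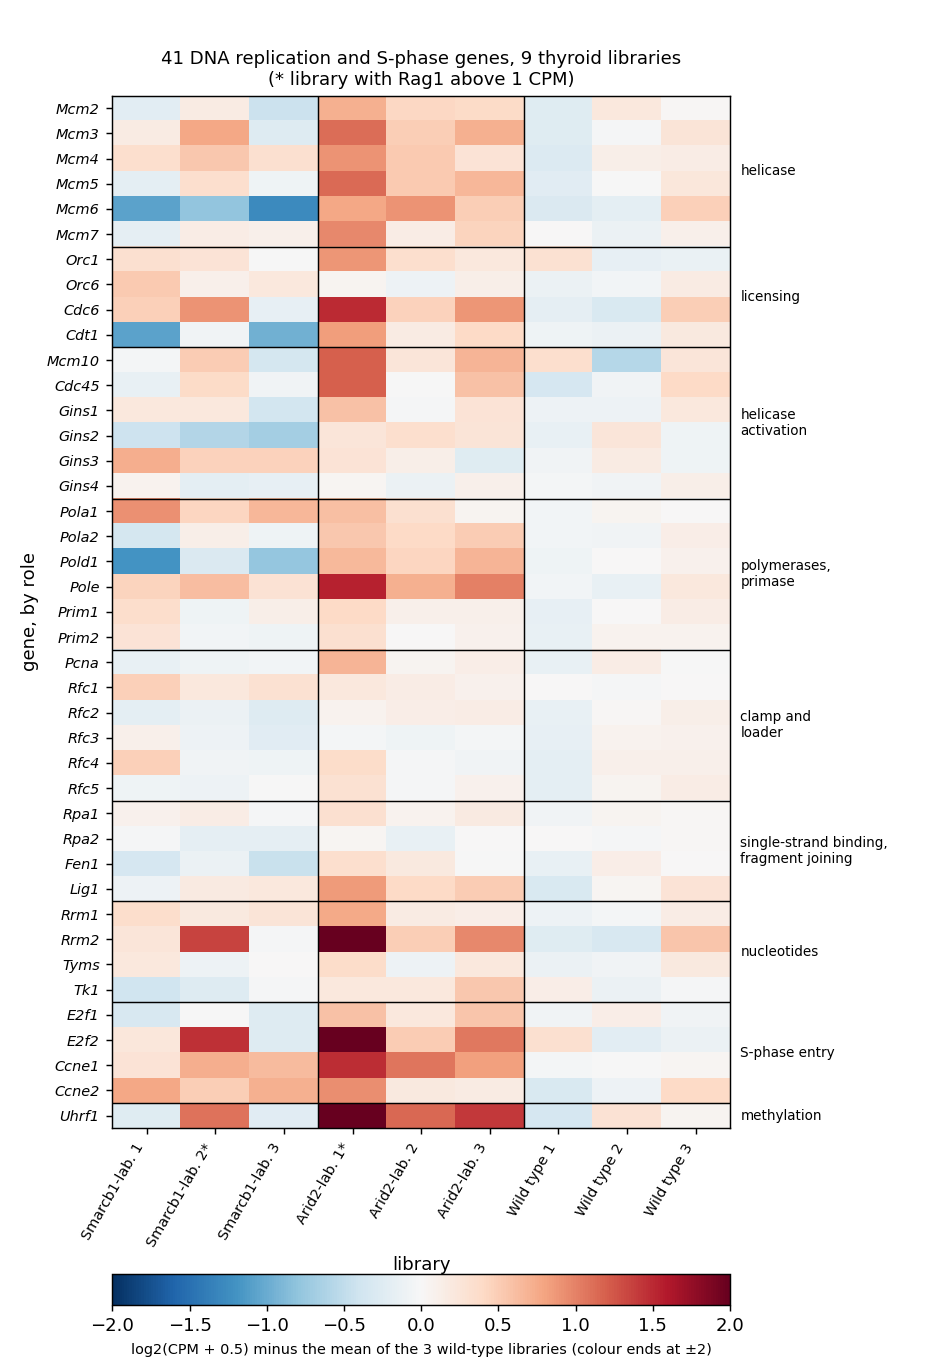
Each row is 1 of the 41 genes, grouped by role, and each column is 1 library; colour is log2(CPM + 0.5) minus the mean of the 3 wild-type libraries. Arid2-labelled replicate 1 is red in most rows, replicates 2 and 3 are paler but mostly red, and Mcm6, Cdt1, Gins2 and Pold1 are blue in Smarcb1-labelled replicates 1 and 3.

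**Figure D2:**
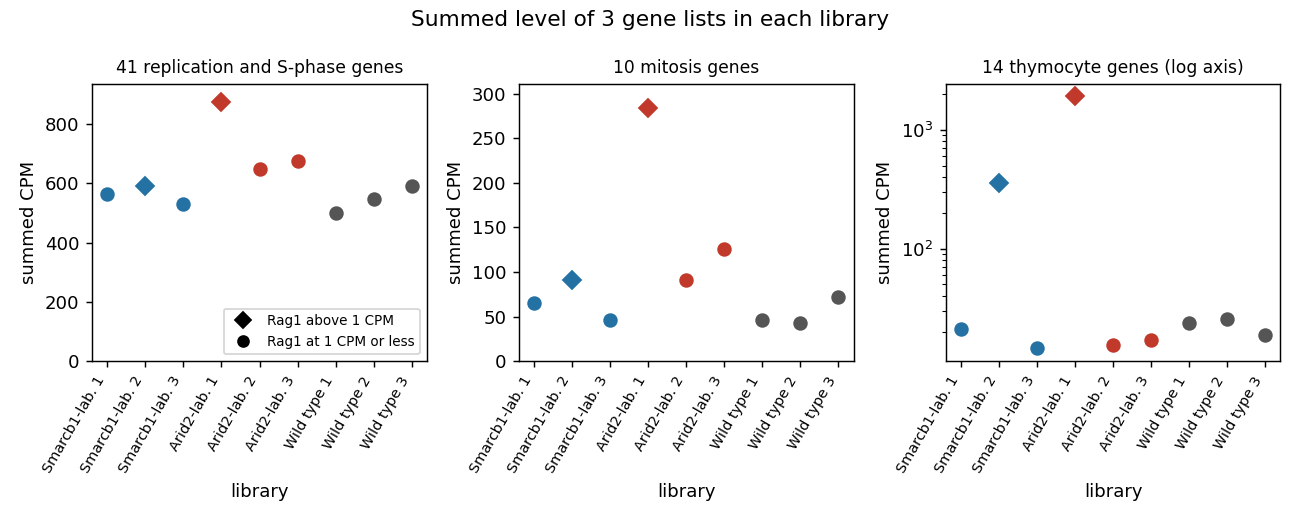
Summed CPM of the 41 genes, of 10 mitosis genes and of 14 thymocyte genes (log axis) in each library; diamonds mark the libraries with Rag1 above 1 CPM. The 41 genes sum to 873, 649 and 676 CPM in the Arid2-labelled libraries, all above wild type, and the thymocyte genes sum to 1915, 15.4 and 17.2 CPM there.

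Promoters of these genes were read for the E2F motif because many replication genes are known targets of the family. The letters searched, on both strands, were TTTCCCGC, TTTCGCGC, TTTGCCGC and TTTGGCGC, in windows from 250 bases before to 50 bases after the start site in RefSeq's table for GRCm38.p6. Of the 41 genes 33 had a window, and 14 of these held a match (42.4%). Of the 11183 tested genes with a window 4.30% held one, and among all 27025 genes with a promoter listed the share was 2.605%. The 5 letters CCAAT, on either strand, were in 21 of the 33 members (63.6%) and in 42.1% of tested genes. A match is a run of letters, not evidence of binding, and no match says only that these letters are absent from this window.

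Of the 10 members called in any comparison, 9 had a window and 5 of these held an E2F match. Those 5 promoters are printed 5′ to 3′ on the strand of the gene, with matches in capitals, since they belong to the genes the calls rest on. Mcm5 lies at chr8:75109259-75109558 on the plus strand, and its pair of overlapping matches begins 153 and 149 bases upstream of the start site. Mcm6 lies at chr1:128359656-128359955 on the minus strand, with matches 110, 106 and 47 bases upstream. Cdt1 is at chr8:122567765-122568064 (plus), Pola1 at chrX:93632106-93632405 (minus) and Pold1 at chr7:44548766-44549065 (minus), with 1 match each.
Mcm5: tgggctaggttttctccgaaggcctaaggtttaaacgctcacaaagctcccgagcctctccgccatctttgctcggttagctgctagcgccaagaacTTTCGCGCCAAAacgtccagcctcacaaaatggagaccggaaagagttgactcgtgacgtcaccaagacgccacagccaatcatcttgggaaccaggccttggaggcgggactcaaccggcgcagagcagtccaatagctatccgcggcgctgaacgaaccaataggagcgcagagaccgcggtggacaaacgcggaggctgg
Mcm6: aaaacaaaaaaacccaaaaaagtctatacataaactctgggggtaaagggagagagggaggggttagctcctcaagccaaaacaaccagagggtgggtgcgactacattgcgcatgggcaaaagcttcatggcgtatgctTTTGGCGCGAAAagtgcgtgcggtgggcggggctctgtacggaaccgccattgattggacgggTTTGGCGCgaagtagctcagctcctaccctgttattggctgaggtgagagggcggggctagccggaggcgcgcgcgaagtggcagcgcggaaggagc
Cdt1: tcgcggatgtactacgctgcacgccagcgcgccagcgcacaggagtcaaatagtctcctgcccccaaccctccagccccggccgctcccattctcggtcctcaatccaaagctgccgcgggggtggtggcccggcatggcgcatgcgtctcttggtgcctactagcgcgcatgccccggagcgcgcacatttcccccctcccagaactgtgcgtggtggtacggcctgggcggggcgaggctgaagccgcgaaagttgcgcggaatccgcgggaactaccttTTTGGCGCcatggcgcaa
Pola1: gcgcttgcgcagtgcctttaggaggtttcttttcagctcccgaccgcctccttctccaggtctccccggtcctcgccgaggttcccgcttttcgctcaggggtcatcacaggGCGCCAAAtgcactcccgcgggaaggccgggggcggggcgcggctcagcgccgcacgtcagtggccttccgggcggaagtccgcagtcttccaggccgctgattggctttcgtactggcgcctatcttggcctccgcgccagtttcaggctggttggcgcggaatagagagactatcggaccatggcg
Pold1: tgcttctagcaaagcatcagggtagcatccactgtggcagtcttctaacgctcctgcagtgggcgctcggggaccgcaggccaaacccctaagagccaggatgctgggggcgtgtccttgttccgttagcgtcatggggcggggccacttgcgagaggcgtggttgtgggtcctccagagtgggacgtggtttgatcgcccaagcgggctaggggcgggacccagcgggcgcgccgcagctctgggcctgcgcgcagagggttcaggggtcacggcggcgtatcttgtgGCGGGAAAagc
In these promoters the matches of Mcm5, Mcm6 and Pola1 lie upstream of the start site, and those of Cdt1 and Pold1 lie 32 and 39 bases downstream. A match thus stood in the promoter of Pola1, called higher in Smarcb1-labelled thyroids than in wild type, and in that of Mcm6, called lower. Against wild type in Smarcb1-labelled thyroids, members with a match had a median log2 fold change of 0.19 and members without one 0.04. In Arid2-labelled thyroids the medians were 0.65 with a match and 0.33 without. Both sets spanned wide ranges, from -0.059 to 2.24 with a match and from -0.029 to 1.85 without in Arid2-labelled thyroids, and the difference was not tested.

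The 6 helicase subunits form the ring that unwinds DNA at the fork, and in Arid2-labelled thyroids all 6 stood above all 3 wild-type libraries, as did 12.9% of all tested genes. Their summed level was 101, 130 and 97.7 CPM in Smarcb1-labelled thyroids, 220, 173 and 164 CPM in Arid2-labelled thyroids and 102, 117 and 138 CPM in wild type. Log2 fold changes in Arid2-labelled thyroids against wild type were 0.51 for Mcm2, 0.81 for Mcm3, 0.59 for Mcm4, 0.82 for Mcm5, 0.70 for Mcm6 and 0.57 for Mcm7, with SEs from 0.18 to 0.28. Adjusted p-values by edgeR were 0.134 to 0.238, so none passed. The same folds without the thymocyte-marked libraries were 0.36, 0.58, 0.37, 0.57, 0.64 and 0.28, and all 6 subunits still stood above wild type in every library left, as did 17.2% of all tested genes.

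Mcm6 was the subunit called in Smarcb1-labelled thyroids against wild type. It stood at 14.1, 17.3 and 12.2 CPM in Smarcb1-labelled thyroids, at 52.3, 56.8 and 42.6 CPM in Arid2-labelled thyroids and at 24.8, 26.3 and 42.3 CPM in wild type. All Smarcb1-labelled libraries were below all others, while wild-type replicate 3 nearly reached the lowest Arid2-labelled library. Mcm6 fell against wild type by 1.10 on the log2 scale (SE 0.23, adjusted p = 0.0241, edgeR) and against Arid2-labelled thyroids by 1.80 (SE 0.23, adjusted p = 0.0049). The call against wild type ended without Smarcb1-labelled replicate 1 or 3 or wild-type replicate 3, where the fold was -0.81 to -1.24 over all fits that left out 1 library. It ended as well in a fit of only the 6 libraries compared, and it held once the dependence on GC content was taken out of every library (-1.26, adjusted p = 0.0313).

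Scaled to transcript length, Mcm6 made up 11.2%, 10.6% and 9.80% of the summed helicase level in Smarcb1-labelled thyroids. Its share was 19.2%, 27.4% and 21.2% in Arid2-labelled thyroids and 19.6%, 18.2% and 25.3% in wild type. In CPM per kb Mcm6 had rank 5 of the 6 subunits in all 3 Smarcb1-labelled libraries, and rank 1, 2 or 3 in the other 6 libraries.

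**Figure D3:**
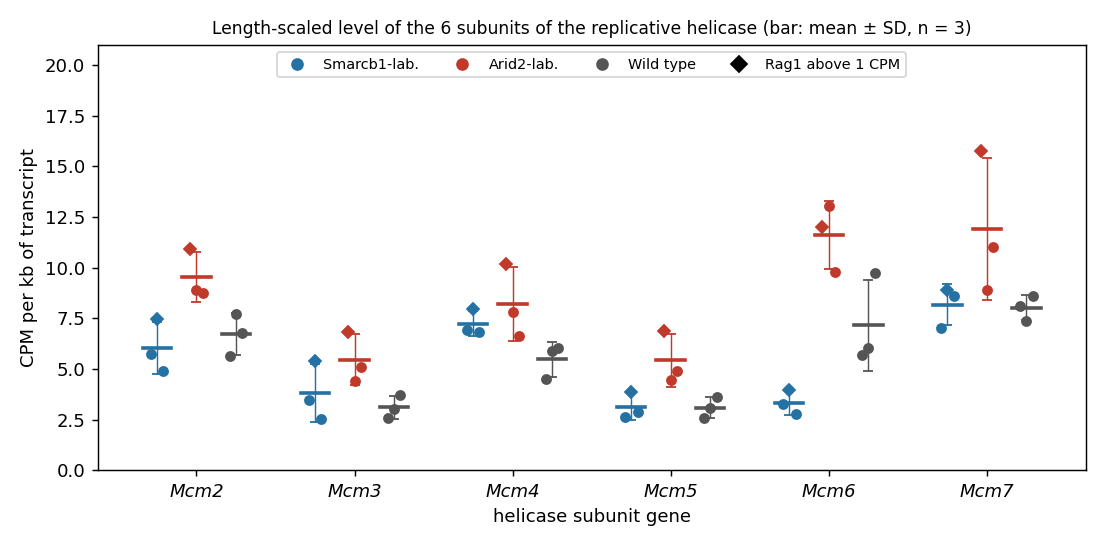
CPM per kb of transcript of Mcm2 to Mcm7 in each library, with the mean ± SD of each group (n = 3); diamonds mark the libraries with Rag1 above 1 CPM. Mcm6 is low in all 3 Smarcb1-labelled libraries, while the other 5 subunits overlap or exceed wild type there and all 6 have their highest mean in Arid2-labelled thyroids.

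The other 5 subunits did not pass against wild type in Smarcb1-labelled thyroids. Mcm2 stood at 20.1, 26.0 and 17.1 CPM in Smarcb1-labelled thyroids, at 38.2, 31.0 and 30.6 CPM in Arid2-labelled thyroids and at 19.7, 27.0 and 23.7 CPM in wild type. Mcm5 stood at 8.96, 13.1 and 9.72 CPM, at 23.3, 15.1 and 16.6 CPM and at 8.74, 10.3 and 12.2 CPM in the same 3 groups. Both overlapped wild type in Smarcb1-labelled thyroids and lay below every Arid2-labelled library, with log2 fold changes against Arid2-labelled thyroids of -0.66 for Mcm2 (SE 0.18, adjusted p = 0.0403) and -0.79 for Mcm5 (SE 0.22, adjusted p = 0.043). Mcm3 stood at 8.74 to 18.5 CPM in Smarcb1-labelled thyroids, at 15.1 to 23.5 CPM in Arid2-labelled thyroids and at 8.89 to 12.7 CPM in wild type. Mcm4 stood at 24.5 to 28.5, 23.7 to 36.6 and 16.1 to 21.7 CPM, and Mcm7 at 20.8 to 26.4, 26.4 to 46.7 and 21.8 to 25.5 CPM, in the same order of groups. Mcm4 alone among the 6 lay above wild type in every Smarcb1-labelled library, without passing the test (adjusted p = 0.177, edgeR).

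Origin licensing is represented by Orc1 and Orc6 of the origin recognition complex and by the loaders Cdc6 and Cdt1. Cdt1 stood at 1.58, 3.69 and 1.76 CPM in Smarcb1-labelled thyroids, at 7.29, 4.40 and 5.27 CPM in Arid2-labelled thyroids and at 3.64, 3.53 and 4.54 CPM in wild type. Its high Smarcb1-labelled library was replicate 2, the one with Rag1 at 52.6 CPM. Cdt1 was called against Arid2-labelled thyroids (log2 fold change -1.27, SE 0.35, adjusted p = 0.0399) and not against wild type (-0.73, SE 0.35, adjusted p = 0.199). It was called against wild type too without the thymocyte-marked libraries (-1.27, SE 0.23, adjusted p = 0.0183). With the GC trend removed it was called in neither comparison (-0.39 against wild type and -0.91 against Arid2-labelled thyroids).

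Cdc6 stood at 2.82, 3.94 and 1.62 CPM in Smarcb1-labelled thyroids, at 6.19, 2.77 and 3.92 CPM in Arid2-labelled thyroids and at 1.61, 1.42 and 2.85 CPM in wild type. The groups overlapped, with a log2 fold change of 1.13 in Arid2-labelled thyroids against wild type (SE 0.43, adjusted p = 0.261) and 0.74 without the thymocyte-marked libraries. Orc1 ranged from 0.598 to 1.78 CPM over the 9 libraries and Orc6 from 13.3 to 20.9 CPM. Orc6 was the one licensing gene with a positive fold in Smarcb1-labelled against Arid2-labelled thyroids (log2 fold change 0.26, SE 0.15, adjusted p = 0.236). With the GC trend removed that fold was -0.00092.

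Helicase activation needs Cdc45, Mcm10 and the 4 GINS subunits. Gins2 stood at 4.55, 4.01 and 3.71 CPM in Smarcb1-labelled thyroids, at 7.47, 7.98 and 7.53 CPM in Arid2-labelled thyroids and at 5.58, 7.43 and 5.84 CPM in wild type. All Smarcb1-labelled libraries were lowest, and the fall against Arid2-labelled thyroids passed (-0.91, SE 0.18, adjusted p = 0.0155). The exons of Gins2 overlap those of Gse1 on the other strand over 67.3% of their bases, and whether counting used strand is not stated, so its count is uncertain. Gins3, its partner in the same complex, stood at 6.82, 5.54 and 5.58 CPM in Smarcb1-labelled thyroids, at 4.83, 4.29 and 3.24 CPM in Arid2-labelled thyroids and at 3.70, 4.41 and 3.65 CPM in wild type. Gins3 was thus highest in all Smarcb1-labelled libraries without passing (0.54 against Arid2-labelled thyroids, SE 0.21, adjusted p = 0.0989). Gins4 ranged only from 18.0 to 22.5 CPM over all 9 libraries, Gins1 from 1.22 to 2.83 CPM, Cdc45 from 1.88 to 6.45 CPM and Mcm10 from 1.37 to 5.87 CPM. The highest value of Gins1, Cdc45 and Mcm10 was in each case Arid2-labelled replicate 1.

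Among the polymerases, 1 gene passed the test in Smarcb1-labelled thyroids against wild type. Pola1 stood at 21.3, 15.1 and 17.7 CPM in Smarcb1-labelled thyroids, at 17.1, 13.9 and 11.5 CPM in Arid2-labelled thyroids and at 10.6, 11.4 and 11.1 CPM in wild type. All Smarcb1-labelled and all Arid2-labelled libraries lay above wild type, and the rise in Smarcb1-labelled thyroids passed (0.71, SE 0.18, adjusted p = 0.0466). That call held in 3 of 9 fits without 1 library, ended without Smarcb1-labelled replicate 1 or 3, Arid2-labelled replicate 2 or any 1 wild-type library, and did not survive removal of the GC trend (0.38, adjusted p = 0.111). Pola2, the accessory subunit bound to Pola1, stood at 9.06, 12.7 and 11.0 CPM in Smarcb1-labelled thyroids, at 17.2, 15.4 and 16.8 CPM in Arid2-labelled thyroids and at 11.1, 11.0 and 12.8 CPM in wild type. Pola2 overlapped wild type in Smarcb1-labelled thyroids and was called lower than in Arid2-labelled thyroids (-0.60, SE 0.15, adjusted p = 0.0332).

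Pold1, the catalytic subunit of the lagging-strand polymerase, stood at 6.33, 12.4 and 8.66 CPM in Smarcb1-labelled thyroids, at 24.1, 20.7 and 24.6 CPM in Arid2-labelled thyroids and at 14.2, 15.2 and 16.1 CPM in wild type. The 3 groups did not overlap at all. Pold1 was lower than in Arid2-labelled thyroids (-1.34, SE 0.22, adjusted p = 0.00942) in edgeR's test, and against wild type it did not pass (-0.73, SE 0.22, adjusted p = 0.0699). Against wild type it was called by DESeq2 (adjusted p = 0.0148) and without the thymocyte-marked libraries (-1.06, adjusted p = 0.0154). Its transcript has 61.0% GC, the highest of the 41, and with the GC trend removed the fold was -0.07 against wild type and -0.72 against Arid2-labelled thyroids, where it still passed (adjusted p = 0.0239).

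Pole, the catalytic subunit of the leading-strand polymerase, stood at 3.84, 4.41 and 3.38 CPM in Smarcb1-labelled thyroids, at 8.72, 4.74 and 5.90 CPM in Arid2-labelled thyroids and at 2.58, 2.36 and 3.17 CPM in wild type. Again the 3 groups did not overlap, in another order than for Pold1, with Arid2-labelled highest and wild type lowest. The log2 fold change in Arid2-labelled thyroids against wild type was 1.25 (SE 0.26, adjusted p = 0.0738, edgeR), and DESeq2 called it (adjusted p = 0.00103). Leaving out the thymocyte-marked libraries gave 0.94. The primase genes Prim1 and Prim2 ranged from 15.2 to 22.7 CPM and from 8.77 to 12.4 CPM over the 9 libraries, with overlapping groups.

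The sliding clamp and its loader had the lowest median fold of the role groups in Arid2-labelled thyroids against wild type, 0.12. Pcna stood at 36.3, 37.9 and 38.6 CPM in Smarcb1-labelled thyroids, at 64.5, 41.8 and 44.2 CPM in Arid2-labelled thyroids and at 36.2, 44.9 and 40.0 CPM in wild type. Apart from Arid2-labelled replicate 1 the libraries lay within 36.2 to 44.9 CPM. The log2 fold change in Arid2-labelled thyroids against wild type was 0.31 (SE 0.16, adjusted p = 0.413), and 0.05 without the thymocyte-marked libraries. Of the 5 loader subunits, Rfc1 lay above wild type in every library of both other groups, at 52.7 to 63.3 CPM in Smarcb1-labelled thyroids and 48.5 to 52.6 CPM in Arid2-labelled thyroids, against 44.9 to 45.7 CPM in wild type. DESeq2 called Rfc1 in Smarcb1-labelled thyroids against wild type (adjusted p = 0.0182) and edgeR did not (adjusted p = 0.059). Rfc2 ranged from 22.5 to 30.2 CPM, Rfc3 from 8.01 to 10.2 CPM, Rfc4 from 3.97 to 6.64 CPM and Rfc5 from 8.86 to 12.8 CPM over the 9 libraries. Rfc3 had the lowest fold of the 41 in Arid2-labelled thyroids against wild type (-0.059, SE 0.15).

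Of the genes that bind single strands and join Okazaki fragments, Rpa1 and Rpa2 were called in no comparison and stood at 49.2 to 64.6 CPM and 14.1 to 16.5 CPM over the 9 libraries. Rpa2 was the other member with a negative fold in Arid2-labelled thyroids (-0.029, SE 0.11). The DNA ligase gene Lig1 stood at 14.7, 18.1 and 18.3 CPM in Smarcb1-labelled thyroids, at 29.0, 21.1 and 22.6 CPM in Arid2-labelled thyroids and at 12.7, 16.3 and 19.2 CPM in wild type. Every Arid2-labelled library was above every other, and the difference from wild type did not pass (adjusted p = 0.18, edgeR). The flap endonuclease gene Fen1 had only 3 to 10 counts in Smarcb1-labelled libraries and 7 to 13 in wild type. It had 18 to 45 counts in Arid2-labelled libraries, which were the deepest. Scaled to library size, Fen1 stood at 0.289 to 0.495 CPM in Arid2-labelled thyroids, overlapping the 0.212 to 0.370 CPM in wild type. That rise was 0.44 on the log2 scale (SE 0.41) and did not pass. In Smarcb1-labelled thyroids Fen1 stood at 0.0812 to 0.226 CPM. Its exons overlap Tmem258 and Gm10143 on the other strand over 84.2% of their bases, so its count is uncertain. The folds of Fen1 in Smarcb1-labelled thyroids, -0.98 against wild type (SE 0.46) and -1.42 against Arid2-labelled thyroids (SE 0.43), did not pass.

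Among the genes of nucleotide supply, Rrm2 had the largest fold in Arid2-labelled thyroids against wild type, without passing the test. Rrm2, the regulated subunit of ribonucleotide reductase, stood at 3.69, 8.55 and 2.98 CPM in Smarcb1-labelled thyroids, at 23.4, 4.48 and 6.41 CPM in Arid2-labelled thyroids and at 2.49, 2.33 and 4.72 CPM in wild type. The highest library of each labelled group was the one with Rag1 above 1 CPM. The log2 fold change in Arid2-labelled thyroids against wild type was 1.85 (SE 0.66, adjusted p = 0.239, edgeR; 0.0419, DESeq2), and 0.74 without the thymocyte-marked libraries. Rrm1, the large subunit of the same enzyme, stood at 37.2 to 41.5 CPM in Smarcb1-labelled thyroids, at 35.5 to 54.9 CPM in Arid2-labelled thyroids and at 30.0 to 35.8 CPM in wild type. Its fold in Arid2-labelled thyroids was 0.38 (SE 0.17), and 0.11 without the thymocyte-marked libraries.

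Tyms, which makes thymidylate, ranged from 10.1 to 14.4 CPM over all 9 libraries with overlapping groups (0.18 in Arid2-labelled thyroids, SE 0.17). Thymidine kinase gene Tk1 stood at 11.0, 12.2 and 14.5 CPM in Smarcb1-labelled thyroids, at 17.0, 17.0 and 21.6 CPM in Arid2-labelled thyroids and at 16.2, 13.5 and 14.4 CPM in wild type. Tk1 was called lower in Smarcb1-labelled than in Arid2-labelled thyroids (-0.56, SE 0.16, adjusted p = 0.0427), a call that held in 0 of 9 fits without 1 library. Against wild type its fold in Arid2-labelled thyroids was 0.33 (SE 0.16).

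Among role groups of several genes, S-phase entry had the largest median fold in Arid2-labelled thyroids against wild type, 1.01. Ccne1, which encodes cyclin E1, stood at 1.27, 1.95 and 1.79 CPM in Smarcb1-labelled thyroids, at 3.59, 2.58 and 2.09 CPM in Arid2-labelled thyroids and at 0.940, 0.968 and 1.01 CPM in wild type. The 3 groups did not overlap, and wild type was lowest with little spread. Against wild type, Ccne1 had a log2 fold change of 1.50 in Arid2-labelled thyroids (SE 0.27, adjusted p = 0.0527), and it passed by DESeq2 (adjusted p = 0.00105), with the GC trend removed (1.46, adjusted p = 0.0411) and without Smarcb1-labelled replicate 1. Leaving out the thymocyte-marked libraries gave 1.23 (adjusted p = 0.123). In Smarcb1-labelled thyroids the fold against wild type was 0.78 (SE 0.27, adjusted p = 0.106).

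Ccne2, which encodes cyclin E2, stood at 6.11, 4.96 and 5.79 CPM in Smarcb1-labelled thyroids, at 6.83, 3.93 and 3.81 CPM in Arid2-labelled thyroids and at 2.64, 3.10 and 4.60 CPM in wild type. Here every Smarcb1-labelled library lay above wild type (0.70, SE 0.30, adjusted p = 0.158), while the Arid2-labelled libraries overlapped it (0.50, SE 0.29, adjusted p = 0.476). Those folds were 0.74 and 0.13 without the thymocyte-marked libraries. Ccne2 shares 17.4% of its exon bases with Ints8 on the other strand.

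E2f1, an activator of S-phase genes, stood at 2.62, 3.35 and 2.73 CPM in Smarcb1-labelled thyroids, at 5.33, 4.01 and 5.20 CPM in Arid2-labelled thyroids and at 3.22, 3.76 and 3.20 CPM in wild type. It was called lower in Smarcb1-labelled than in Arid2-labelled thyroids (-0.74, SE 0.20, adjusted p = 0.0394), and not with the GC trend removed (-0.29, adjusted p = 0.333). Against wild type the fold was 0.51 in Arid2-labelled thyroids (SE 0.20, adjusted p = 0.278).

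E2f2, another activator, had the largest fold of the 41 in Arid2-labelled thyroids and also the widest error. It stood at 3.89, 9.91 and 2.65 CPM in Smarcb1-labelled thyroids, at 34.7, 4.85 and 7.28 CPM in Arid2-labelled thyroids and at 4.22, 2.76 and 2.97 CPM in wild type. Both thymocyte-marked libraries were the highest of their group. Against wild type, E2f2 had a log2 fold change of 2.24 in Arid2-labelled thyroids (SE 0.76, adjusted p = 0.211) and 0.73 in Smarcb1-labelled thyroids (SE 0.74, adjusted p = 0.539). These were, without the thymocyte-marked libraries, 0.84 (SE 0.29) and -0.061 (SE 0.30), so the sign in Smarcb1-labelled thyroids turned.

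Uhrf1, which brings the maintenance methyltransferase to newly copied DNA, stood at 4.71, 12.5 and 4.76 CPM in Smarcb1-labelled thyroids, at 26.8, 13.1 and 15.8 CPM in Arid2-labelled thyroids and at 4.34, 7.03 and 5.84 CPM in wild type. Every Arid2-labelled library was above every other library. The log2 fold change in Arid2-labelled thyroids against wild type was 1.69 (SE 0.43, adjusted p = 0.118, edgeR; 0.00273, DESeq2). The fold was 1.29 (SE 0.23, adjusted p = 0.0724) without the thymocyte-marked libraries. Against Arid2-labelled thyroids Smarcb1-labelled thyroids had a fold of -1.34 (SE 0.42, adjusted p = 0.0589), and of -1.62 (SE 0.26, adjusted p = 0.0121) without the thymocyte-marked libraries, where it passed.

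**Figure D4:**
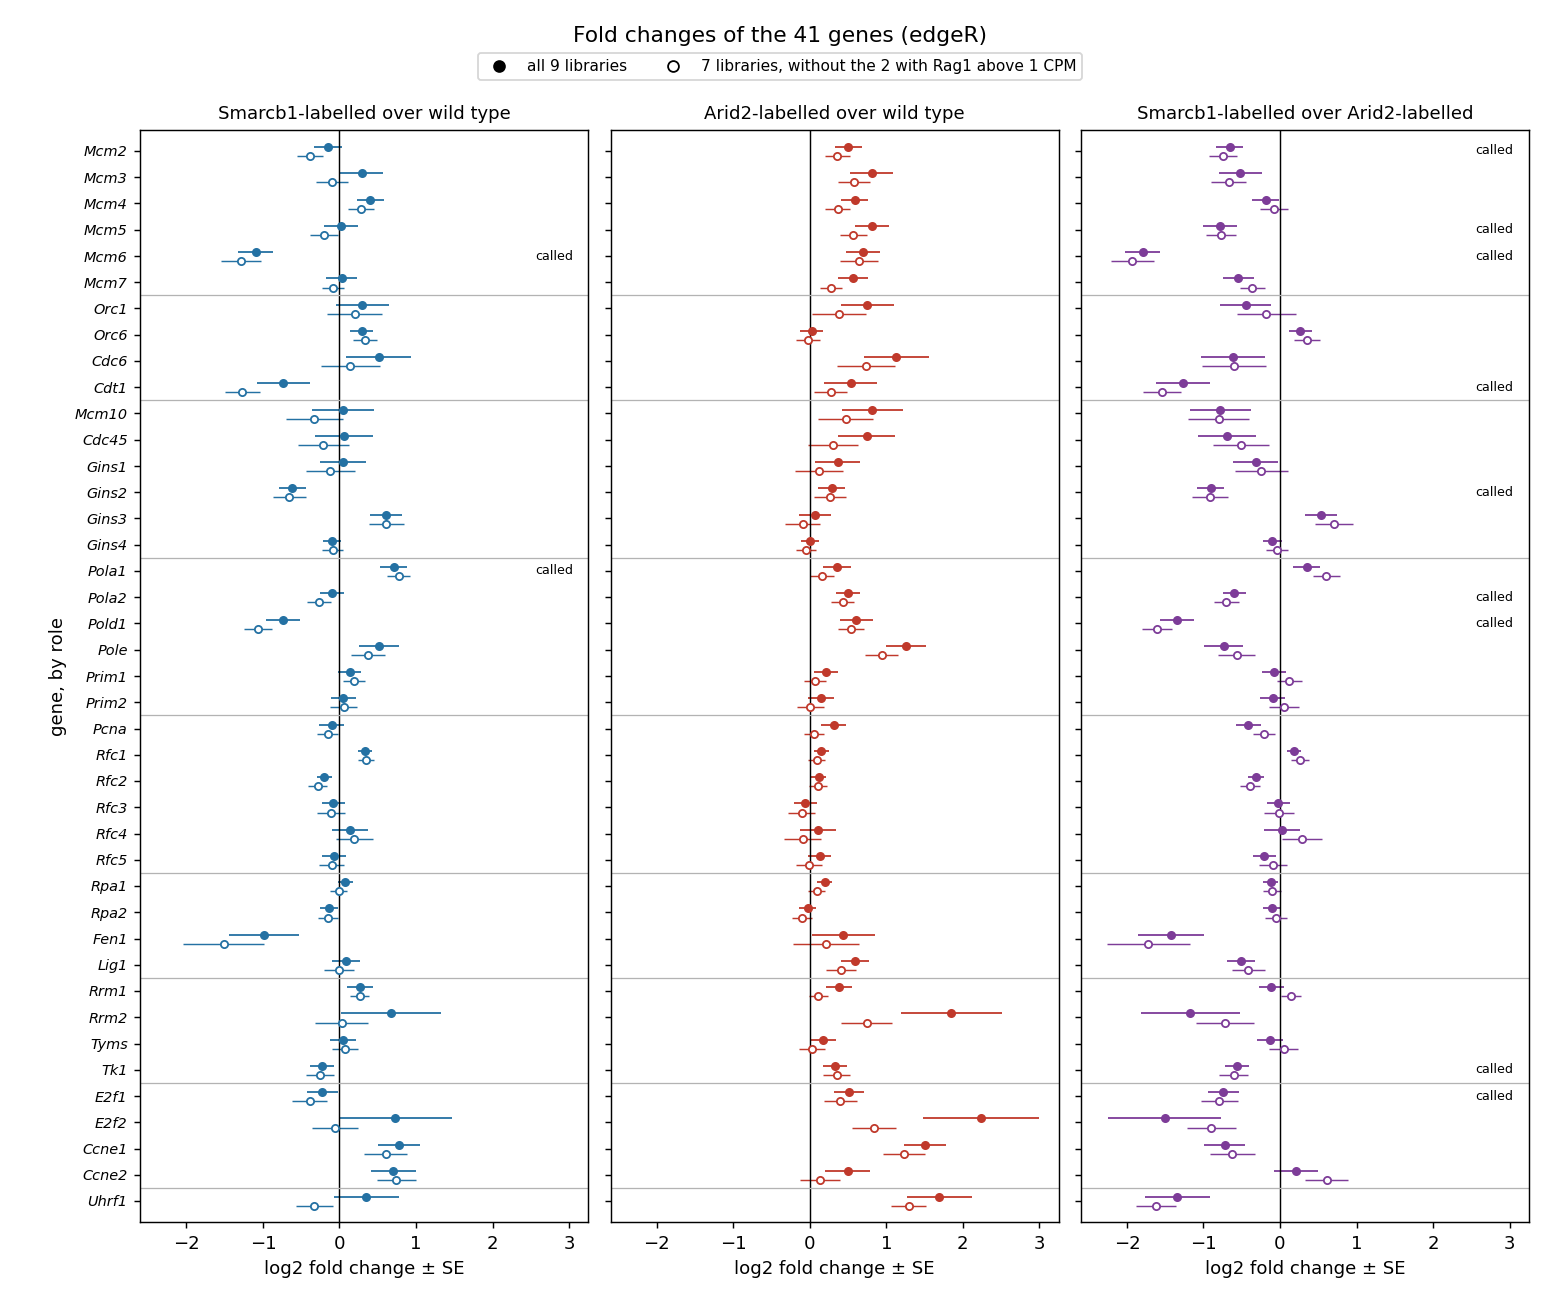
Log2 fold change ± SE of each gene in the 3 comparisons, with all 9 libraries (filled) and without the 2 libraries with Rag1 above 1 CPM (open); "called" marks an adjusted p under 0.05 with all libraries. In Arid2-labelled against wild type the open points lie nearer to 0 for most genes, most of all for E2f2 and Rrm2, and remain right of 0 for 34 of 41.

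Per length, the 41 genes differed widely in level within wild type. Pcna had the highest mean at 26.6 CPM per kb, then Gins4 at 15.4 and Rpa1 at 10.2 CPM per kb. Fen1 was lowest at 0.123 CPM per kb, after Orc1 at 0.249, Pole at 0.378 and Cdc6 at 0.408 CPM per kb. Wild-type libraries were not alike either, since replicate 3 was the highest of the 3 for 26 of 41 members.

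A wider list of 60 other replication and S-phase genes, of which 59 were in the table and tested, was read the same way. In Arid2-labelled thyroids 42 were positive against wild type, at a median of 0.36, with 0 called by edgeR, where 0.234% of all tested genes were called higher. DESeq2 called 9 higher, against 2.41%, and at an unadjusted p under 0.05, 25 were higher, against 7.86%. The replisome gene Wdhd1 was among the 3 with the smallest p-values (0.75, SE 0.18, adjusted p = 0.103). The median was 0.10 without the thymocyte-marked libraries, with 12 at an unadjusted p under 0.05 on the higher side, against 5.60% of all tested genes. In Smarcb1-labelled thyroids 47 were positive at a median of 0.23, where 54.6% of all tested genes were positive at a median of 0.052. By edgeR 0 were called, against 2.15% higher and 5.74% lower over all tested genes. Every Smarcb1-labelled library stood above every wild-type library for 22 and below for 3, against 17.1% and 16.7% of all tested genes. At an unadjusted p under 0.05, 12 were higher and 3 lower, against 13.8% and 14.6% of all tested genes. DESeq2 called 6 higher and 1 lower, against 5.91% and 10.4%. Without the thymocyte-marked libraries edgeR called 5 higher and 2 lower, against 3.51% and 9.09%. With all 9 libraries the smallest p-values were those of the origin recognition gene Orc2 (0.44, SE 0.12, adjusted p = 0.0567), the polymerase subunit gene Pold4 (-0.50, SE 0.15, adjusted p = 0.0717) and the topoisomerase gene Top1 (0.55, SE 0.17, adjusted p = 0.0745).

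In Smarcb1-labelled against Arid2-labelled thyroids 6 of the 59 were called lower and 1 higher, against 9.32% and 6.95% of all tested genes. Of the 59, 34 had a negative fold, at a median of -0.11, where the 41 members had a median of -0.51. Without the thymocyte-marked libraries 34 of the 59 were positive, at a median of 0.097, where the 41 members had -0.39. Rnaseh2a, a subunit of the enzyme that removes RNA from DNA, stood at 17.3, 17.8 and 16.3 CPM in Smarcb1-labelled thyroids, against 26.6, 24.8 and 28.6 CPM in Arid2-labelled thyroids (-0.64, SE 0.10, adjusted p = 0.00782). Its groups lay far apart, and the call held in 9 of 9 fits without 1 library. Tonsl, a replication fork repair factor, was also lower (-1.09, SE 0.21, adjusted p = 0.0152) and held in 8. Chaf1b, Chtf18 and Pold4 were lower and Orc2 was higher, with log2 fold changes of -0.86, -1.54, -0.55 and 0.50, and they held in 4, 1, 2 and 3 of the 9 fits. Adjusted p-values of these 4 genes ran from 0.0262 for Chaf1b to 0.0472 for Chtf18 (edgeR). Without the thymocyte-marked libraries 6 were called lower and 4 higher, against 11.6% and 10.2% of all tested genes.

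Genes of mitosis, the stage after replication, were compared as a list of 10. Their sum was 65.2, 91.3 and 46.7 CPM in Smarcb1-labelled thyroids, 285, 90.7 and 125 CPM in Arid2-labelled thyroids and 45.9, 43.0 and 71.8 CPM in wild type. All 10 were positive in Arid2-labelled thyroids at a median of 1.60, and 0.97 without the thymocyte-marked libraries, where the 41 replication genes had 0.50 and 0.27. By edgeR 0 were called, against 0.234% of all tested genes called higher. At an unadjusted p under 0.05 all 10 were higher, against 7.86%, and DESeq2 called all 10 higher, against 2.41%. In Smarcb1-labelled against Arid2-labelled thyroids all 10 were negative, at a median of -1.31, and of -1.18 without the thymocyte-marked libraries. The 41 replication genes had -0.51 and -0.39 there. EdgeR called 4 of the 10 lower, against 9.32% of all tested genes, and DESeq2 called 8, against 13.5%. In Smarcb1-labelled thyroids against wild type 7 were positive, at a median of 0.34. EdgeR called 0 there, against 2.15% higher and 5.74% lower over all tested genes. Of 9 mitosis promoters 1 held an E2F match (11.1%) and 8 held CCAAT (88.9%), against 4.30% and 42.1% of tested genes.

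Fold changes of Smarcb1-labelled thyroids also varied with GC content, which touches several members. Over all tested genes with more than 50% GC the median was -0.20 against wild type and -0.27 against Arid2-labelled thyroids, and under 45% GC it was 0.30 and 0.33. The 19 members above 50% GC had medians of -0.10 and -0.72, and the 7 members under 45% GC had 0.14 and -0.020. With the GC trend removed, 4 of the 9 members called against Arid2-labelled thyroids were still called, Gins2, Mcm6, Pola2 and Pold1, and Pcna was called in addition. Exons of 8 of the 41 members overlap other genes over more than 10% of their bases, Gins2 and Fen1 most, then Ccne2, Rfc2, Rfc4, Mcm7, Orc1 and Rfc5, so their counts are less certain than the rest.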

How the data were processed

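RNA was taken from flash-frozen thyroids and made into TruSeq libraries, per the labels' protocols. The authors deposited raw counts per gene, which are whole and not normalized. STAR 2.4, HTSeq 0.6.1, DESeq2 and the build mm9 stand in the submitters' processing notes without a role or order, and whether counting used strand is not given in the sources used here. The 41 genes, their roles and all other lists were chosen with earlier results of these data known.

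Counts were tested with edgeR 4.0.16 in R 4.3.3 (quasi-likelihood F test, TMM, filterByExpr by group), as a single fit of the 3 group means to the 9 libraries, with 6 residual degrees of freedom. Benjamini-Hochberg adjustment ran over 17079 tested genes, a call is an adjusted p under 0.05, and log2 fold changes carry a standard error from the fit. No library repeats another of its group: the chi-square of their counts per degree of freedom was 47.6 to 122. The edgeR step was tested on counts simulated gene by gene, without shifts shared among the genes of a library. That test therefore cannot vouch for error rates in these data.

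Genes picked for description were the helicase subunits, a fixed set of main S-phase genes, every called member, and up to 4 largest rises and falls per comparison. Their values are given by library or as ranges. Pole, Lig1 and Rfc1 were added after their values were seen. Of the wider list of replication genes, those called and the 3 with the smallest p in each comparison are named, except some that are not reported here. Adjusted p-values that DESeq2 gave as NA were left out. Alternatives were DESeq2 1.42.0 (Wald test, or its size factors in edgeR), no filter, a fit of only the 6 libraries compared, thinning to the smallest total, the GC trend of every library removed (spline with 5 degrees of freedom, GC of the longest GENCODE M21 transcript, 97.3% of tested genes matched), leaving out each library, and leaving out libraries with Rag1 above 1 CPM. Removing the GC trend and leaving out the Rag1-marked libraries were also combined, a choice made after the data were seen. Lengths and exon overlaps came from GENCODE M21 and promoters from RefSeq for GRCm38.p6, both matched by symbol. These builds differ from mm9, so no coordinate comes from the count table.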

Additional observations from a re-analysis of the deposited data

How the results depend on the processing

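Under DESeq2's Wald test more passed: 882, 2761 and 4337 genes, and 5, 5 and 14 members, for Arid2-labelled against wild type, Smarcb1-labelled against wild type and Smarcb1-labelled against Arid2-labelled, in that order. In fits of only the 6 libraries compared 201, 486 and 1348 genes passed, with 0 members in Smarcb1-labelled against wild type and 3 against Arid2-labelled. With the GC trend removed 209, 487 and 1301 genes passed, and 1, 1 and 5 members; the log2 fold changes against Arid2-labelled thyroids of Pola1 (-0.026), Orc6 (-0.00092) and Ccne2 (-0.23) turned negative. Without the thymocyte-marked libraries 56 genes passed for Arid2-labelled and 2166 for Smarcb1-labelled against wild type, 4 members in the second, the Arid2-labelled median was 0.27, and the fold of E2f2 in Smarcb1-labelled thyroids was -0.061. With both changes, a combination chosen after seeing the data, 199 and 518 genes and 1 and 4 members passed for Smarcb1-labelled against wild type and against Arid2-labelled, the medians against wild type were 0.265 for Arid2-labelled and -0.14 for Smarcb1-labelled, and the fold of Ccne2 against Arid2-labelled was -0.054. With no filter 1 member passed in Smarcb1-labelled against wild type. The causes of these shifts were not tested.

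Leaving out 1 library gave 5 to 167 genes and 0 to 1 members in Arid2-labelled against wild type, 344 to 2538 genes and 0 to 5 members in Smarcb1-labelled against wild type, and 395 to 4411 genes and 2 to 11 members in Smarcb1-labelled against Arid2-labelled, where the median ran from -0.60 to -0.19. The fold of Rpa2 in Arid2-labelled thyroids ran from -0.064 to 0.028 and that of E2f2 in Smarcb1-labelled thyroids from -0.016 to 1.06. DESeq2 size factors in the edgeR fit and thinning changed no count of calls by over 1.5 times. No paired analysis was possible because the labels carry no replicate numbers that groups share. Precision is limited by 3 libraries a group, and for Fen1 by counts of 3 to 45.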
